A study of Danio rerio with 3 samples.

Results

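The cadherin genes were taken as every row of the count matrices whose symbol begins with cdh followed by a digit. This gave 27 rows of 25109 gene rows, with 26 different symbols because cdh23 stands under 2 gene IDs. A UMI (unique molecular identifier, the tag that marks 1 captured transcript) of 26 of the 27 rows was found in the cells kept, and 1 row, cdh28, stood at 0, where a count of 0 allows up to 0.00645 CPM (UMIs of a gene scaled to a library or class total of 1e6 UMIs) over all cells. The cadherin rows held 232910 of 464953823 UMIs. 5 of them, cdh1, cdh2, cdh5, cdh6 and cdh11, reached at least 20 CPM in one of the cell classes compared below and held 97.0% of the cadherin UMIs.

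Cadherins are membrane proteins that bind cells of the same kind to each other in the presence of calcium. The classical members reach from the cell surface to the actin skeleton through beta-catenin, alpha-catenin and p120-catenin, and together these proteins build the adherens junction. Epithelia of the embryo are known for cdh1 (E-cadherin), the neural tube for cdh2 (N-cadherin) and blood vessels for cdh5 (VE-cadherin), whereas cdh6 and cdh11 belong to the type II cadherins, known from neural crest and from mesenchyme.

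Single cells came from tissue dissected around the otic vesicle, the forming inner ear, of zebrafish embryos. The labels give about 22 hours post-fertilization (hpf) for each library, whereas the study's methods name earlier stages beside this one, and which stages entered each library is not given in the sources used here. There was 1 library per genotype, each from pooled embryos, and the genotypes were shox2Δ/Δ (mutant), shox2Δ/+ (heterozygote) and shox2+/+ (wild-type). According to the study's methods, mutant embryos were chosen as GFP-negative offspring of fish with a Gal4 insertion at shox2 and a UAS:GFP reporter, and wild-type embryos carried neurog1:dsRed and neurod1:EGFP. The origin of the heterozygote embryos is not given in the sources used here. The Δ allele lacks a stretch of exons 1 and 2 of the homeobox gene shox2. With 1 library per genotype, genotype, embryo pool, reporter background and library cannot be told apart, no test between genotypes was made, and every interval below is a 95% interval for counting error only.

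Cells were kept with at least 500 but under 6500 genes and with mitochondrial UMIs below 5%, which left 6672 mutant, 8233 heterozygote and 8548 wild-type cells with a median of 16570 to 19450 UMIs. They formed 42 clusters, and 35 clusters were named after marker genes, with cadherins, catenins and the other junction genes described here left out of the variable genes. 13 classes with at least 50 cells in every library, 17975 of 23453 cells, were compared. The markers fitted the names unevenly: 16 of 16 epidermis, 19 of 19 neuron, 14 of 15 endothelium and 13 of 18 otic epithelium markers were raised at least 2-fold in their class, against 4 of 10 placodal ectoderm markers with 1 at 0. Floor plate-like cells, with 11 of 12 of their own markers raised, also held otic markers, which summed to 4314, 5518 and 5615 CPM in mutant, heterozygote and wild-type cells. Of the 18 otic markers 4 were at 0 in this class, and a few abundant members can carry such a sum. DsRed stood at 0.549, 2.21 and 134.6 CPM and EGFP at 3.65, 260.6 and 253.2 CPM in mutant, heterozygote and wild-type cells. The kit reads the 3′ end of a transcript and the deletion lies at the other end, so shox2 counts do not show the deletion. Over all cells shox2 measured 0.999 CPM in the mutant and 4.52 CPM in the heterozygote library, with the wild-type library between them. By quantitative PCR of single embryos, the study reports less shox2 transcript in heterozygotes than in wild-type and nearly none in mutants. The heterozygote library, above the wild-type one, did not follow that order, and the cause was not tested.

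Libraries shared cell barcodes: 551 barcodes stood in both the mutant and the wild-type library, 190 in both the mutant and the heterozygote, and 66 in both the heterozygote and the wild-type. In the mutant and wild-type pairs the shallower copy had a median of 1114 UMIs and the deeper one of 40984, and both copies fell into the same cluster in 62.8% of pairs. The shallower copies were 554 mutant, 195 heterozygote and 49 wild-type cells with 0.692%, 0.255% and 0.135% of their library's UMIs. Results are given with all cells, and the values without the shallower copies stand beside the counts that rest on them.

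Among the 13 compared classes, each of the 5 abundant cadherins had a different class at the top. CPM count captured 3′ ends, so they are not divided by transcript length, and a comparison between genes compares captured ends. Over all cells cdh2 was the most abundant at 243.5 CPM, followed by cdh6 at 110.8, cdh11 at 60.3, cdh1 at 58.1 and cdh5 at 13.4 CPM. The top class stood at least 4-fold over the median of the other classes for 4 of the 5, and the same held for 42.1% of the 8443 genes that reached 20 CPM in a class. The fold was 57.4 for cdh1 in epidermis-like cells, 32.2 for cdh6 in cranial sensory neuron-like cells, 17.1 for cdh11 in otic epithelium-like cells and 3.78 for cdh2 in neural progenitor-like cells. For cdh5 in endothelium-like cells it was 4313, with classes that had fewer than 3 UMIs set to 3 UMIs. Within these classes cdh7a, outside the group of 5, came nearest to 20 CPM, with 18.0 CPM in floor plate-like cells. In muscle-like cells, a class too small to be compared, cdh15 reached 46.5 CPM. The map of all 27 rows over the 13 classes shows these levels side by side.

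**Figure D1:**
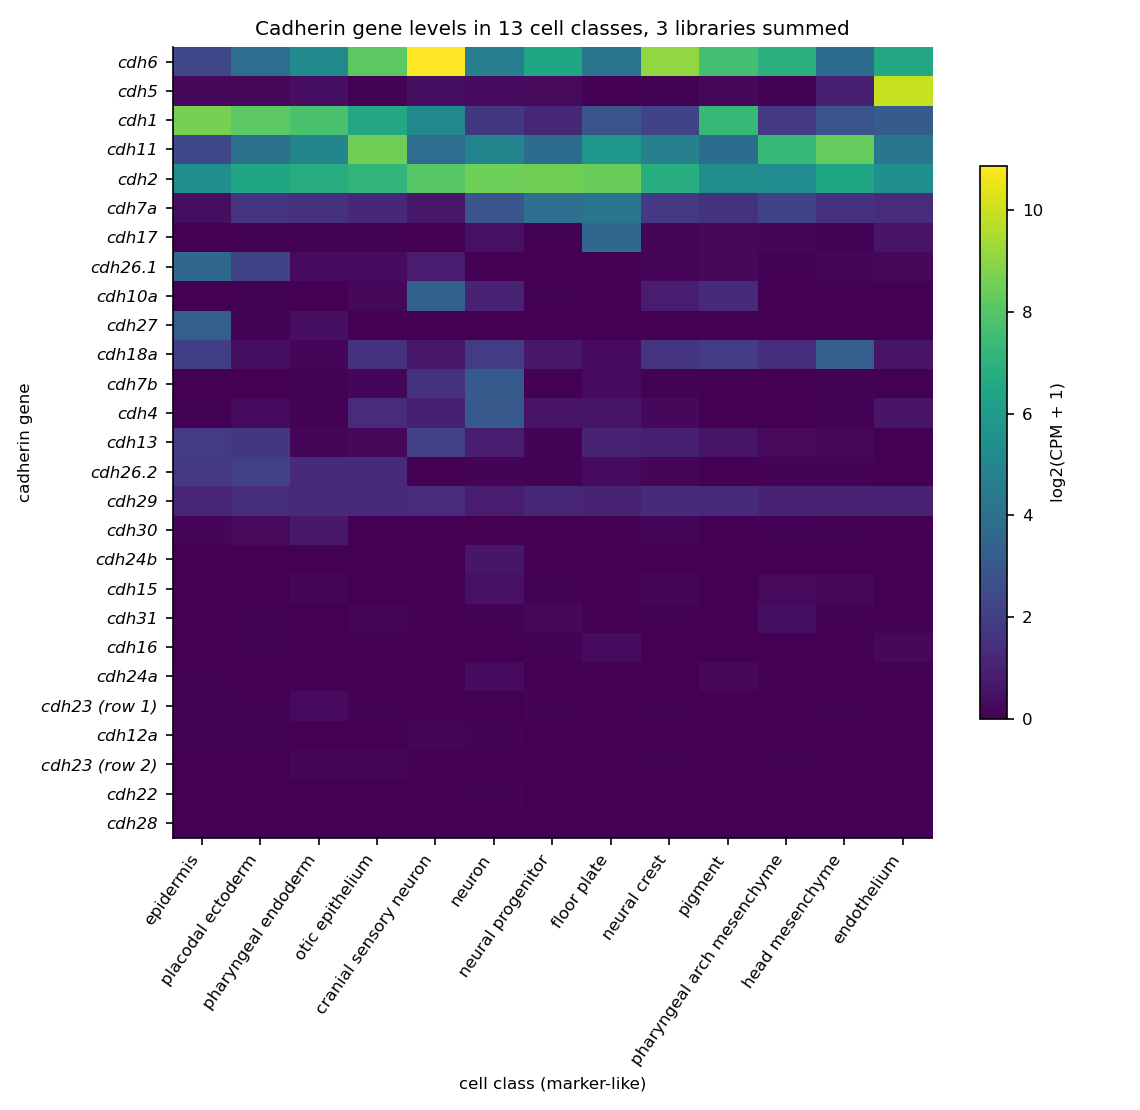
Level of each of the 27 cadherin rows (down the page) in 13 marker-named cell classes (across), as log2(CPM + 1) of UMIs summed over the 3 libraries. The brightest cells are cdh6 in cranial sensory neuron-like cells at 1876 CPM, cdh5 in endothelium-like cells at 991 CPM and cdh6 in neural crest-like cells at 550 CPM. Lower levels of cdh1, cdh2, cdh6 and cdh11 each spread over several classes, while 14 rows stay under 5 CPM in each of the 13 classes.

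The gene cdh1, which encodes the cadherin of epithelial junctions, was highest, among the compared classes, in the covering epithelium. In epidermis-like cells it (ENSDARG00000102750) measured 434 CPM in the mutant, 382 in the heterozygote and 381 in the wild-type library. It then stepped down through placodal ectoderm-like cells, with 280, 283 and 290 CPM, and pharyngeal endoderm-like cells, with 213, 217 and 209 CPM in mutant, heterozygote and wild-type libraries. The ranges of these 3 classes over the libraries did not overlap. Pigment-like cells followed with 115, 138 and 211 CPM, a range that overlapped the one of the pharyngeal endoderm-like class.

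Otic epithelium-like cells, which derive from a placode, had 100.3, 97.3 and 86.9 CPM of cdh1 in mutant, heterozygote and wild-type libraries, below each of the other epithelial classes. Cranial sensory neuron-like cells had 21.5, 54.1 and 31.7 CPM of cdh1. In the same class and order of libraries the 16 epidermis markers summed to 469, 2021 and 315 CPM. Both sums were highest in the heterozygote library, and the part of epidermal transcripts in the cdh1 value was not tested. In the other 7 classes the pooled level of cdh1 lay between 1.38 CPM in neural progenitor-like and 8.03 CPM in endothelium-like cells. The epidermis-like class was not uniform: its 3 clusters measured 576, 284 and 249 CPM of cdh1 with the libraries pooled.

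The gene cdh2 (ENSDARG00000018693) encodes the cadherin of neuroepithelial junctions, and it was present in each of the 13 compared classes. Neural progenitor-like cells had 401 CPM in the mutant, 399 in the heterozygote and 324 in the wild-type library. Neuron-like cells had 367, 333 and 353 CPM, and floor plate-like cells 392, 334 and 270 CPM in mutant, heterozygote and wild-type libraries. These 3 classes and the cranial sensory neuron-like cells, at 281, 228 and 269 CPM, formed a group in which each neighbour's range over the libraries overlapped the next. Otic epithelium-like cells came next with 137, 127 and 158 CPM of cdh2, and their range did not reach that of the neural classes.

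Outside the neural and otic classes the pooled level of cdh2 ran from 114 CPM in neural crest-like cells over 108 CPM in pharyngeal endoderm-like cells to 38.2 CPM in pharyngeal arch mesenchyme-like cells. The lowest classes, endothelium-, epidermis-, pigment- and arch mesenchyme-like cells, overlapped in their ranges. Within the neural progenitor-like class the 14 clusters spread from 257 to 486 CPM of cdh2. Clusters 1, 16 and 17 held few wild-type cells (12, 10 and 8), with pooled cdh2 of 370, 347 and 338 CPM. Clusters 8, 18 and 20 were mainly wild-type (961, 560 and 464 cells), with pooled cdh2 of 302, 306 and 275 CPM. In cluster 2, which all libraries filled, cdh2 measured 496, 503 and 444 CPM, and in cluster 36 it measured 374, 356 and 421 CPM, in mutant, heterozygote and wild-type cells. The mutant was above the wild-type in cluster 2 and below it in cluster 36. Clusters 5, 12, 14, 19, 23 and 24 were also filled by all libraries, and in each of them the mutant was above the wild-type. Cluster 14 had 261 and 246 CPM and cluster 24 had 429 and 304 CPM in mutant and wild-type cells.

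The gene cdh5 (ENSDARG00000075549) encodes the endothelial cadherin that seals vessel walls. Endothelium-like cells had 874 CPM in the mutant, 915 in the heterozygote and 1110 in the wild-type library. No other of the 13 compared classes exceeded 0.914 CPM with the libraries pooled, and floor plate-like cells had no UMI. Among the small classes, lateral plate and heart mesoderm-like cells had 5.00 CPM of cdh5. After each cell had been thinned to 3000 UMIs, which left out shallower cells, 87.0% of 301 endothelium-like cells held a cdh5 UMI (interval 82.7 to 90.6%). Among 632 epidermis-like cells it was 0, which allows a share of up to 0.582%. Epidermis should lack the gene, so its share was set beside that of endothelium-like cells, and the level of free RNA was not tested. The median depths before thinning were 17142.5 and 29730 UMIs in endothelium-like and epidermis-like cells.

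The gene cdh6 (ENSDARG00000014522) encodes a type II cadherin, and its highest level was found in sensory neurons. Cranial sensory neuron-like cells had 2288 CPM in the mutant, 1635 in the heterozygote and 1590 in the wild-type library, the highest level of any cadherin in the compared classes. Neural crest-like cells followed with 506, 442 and 649 CPM in mutant, heterozygote and wild-type libraries, and the ranges of the classes did not overlap. At 3000 UMIs per cell 86.6% of cranial sensory neuron-like and 64.8% of neural crest-like cells held a cdh6 UMI, against 0.633% of epidermis-like cells.

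Otic epithelium-like cells had 182 CPM of cdh6 in the mutant, 176 in the heterozygote and 424 in the wild-type library. Pigment-like cells ran the other way, with 388, 171 and 46.6 CPM in mutant, heterozygote and wild-type libraries. Pharyngeal arch mesenchyme-like cells had 99.8, 110 and 143 CPM. From the otic to the neural progenitor-like class each neighbour in the order overlapped the next, so the libraries do not fix an order there. At the low end, epidermis-like cells had 2.18, 3.33 and 10.2 CPM of cdh6, and 26 of the 40 wild-type UMIs lay in 1 cell.

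Within the neural progenitor-like class cdh6 was concentrated in a few clusters. Cluster 36, led by lmx1a, gdf6a and bmp5, genes known from the roof plate, had 1127, 1075 and 1346 CPM in mutant, heterozygote and wild-type cells (47, 64 and 56 cells). Cluster 19, led by atoh1a, a gene of the rhombic lip, had 412, 385 and 491 CPM (77, 150 and 304 cells). Cluster 12, with egr2a, egr2b and mafba, genes of hindbrain segments, had 259, 230 and 144 CPM. In cluster 36 and cluster 19 the wild-type cells were highest and in cluster 12 the mutant cells. At the other end of the class, cluster 1 had a pooled level of 1.74 CPM.

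The gene cdh11 (ENSDARG00000021442) encodes a type II cadherin known from mesenchyme. Otic epithelium-like cells had 511 CPM in the mutant, 427 in the heterozygote and 234 in the wild-type library. Head mesenchyme-like cells had 290, 286 and 356 CPM in mutant, heterozygote and wild-type libraries. The top class therefore depended on the library: it was the otic one in mutant and heterozygote and the head mesenchyme-like one in wild-type cells. Pharyngeal arch mesenchyme-like cells had 150, 155 and 158 CPM, floor plate-like cells 50.1, 45.4 and 73.8 CPM, and the other 9 classes pooled levels between 4.15 and 31.0 CPM. The plot of the 5 genes by class and library shows which levels part by library.

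**Figure D2:**
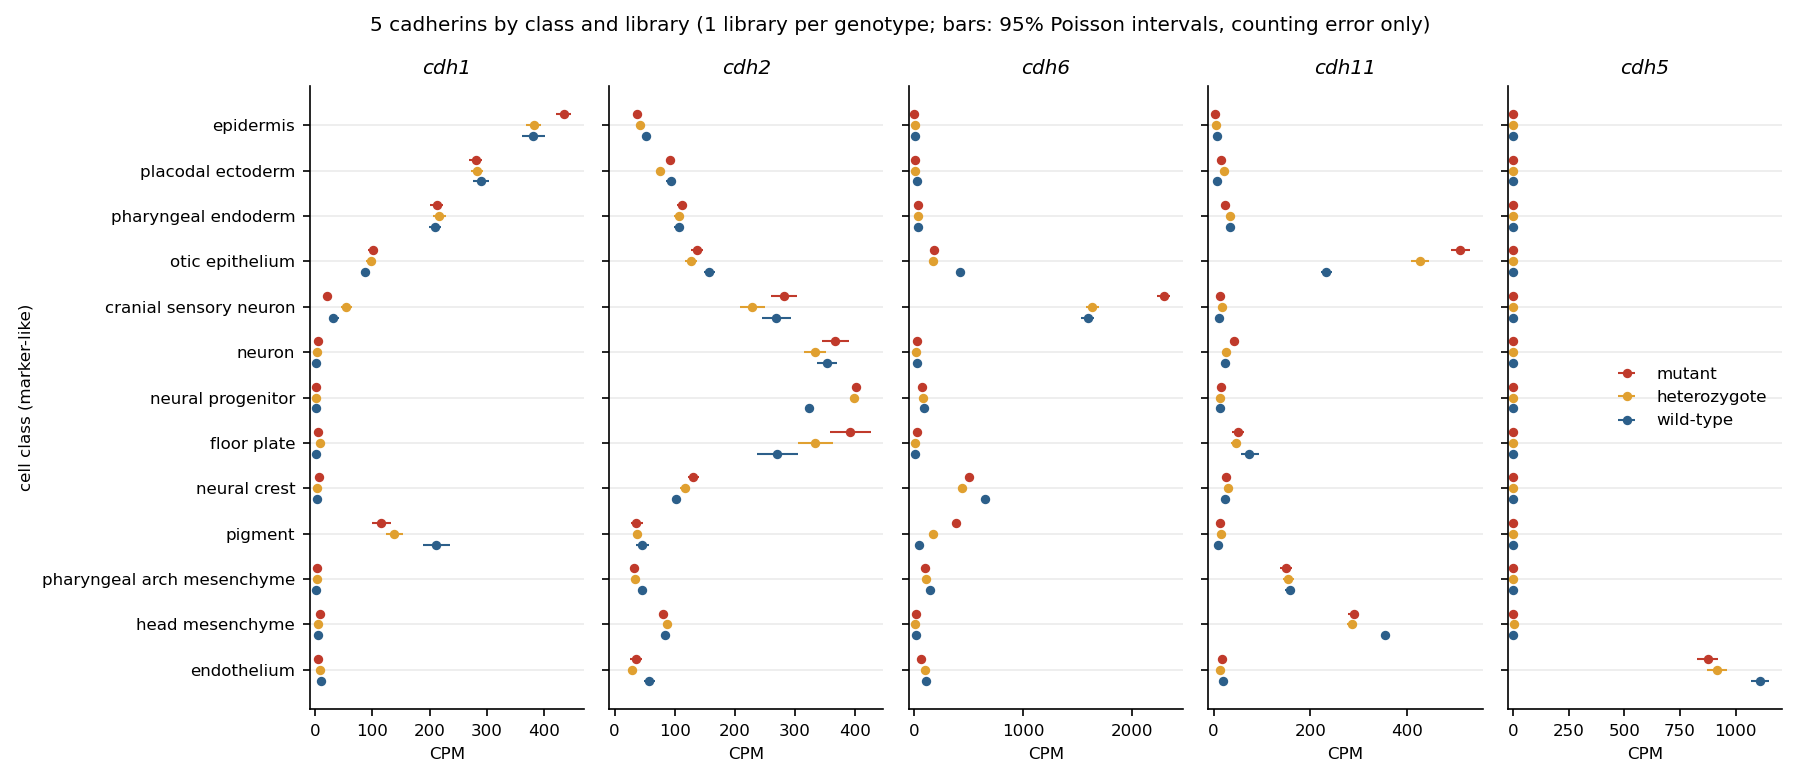
Levels of cdh1, cdh2, cdh6, cdh11 and cdh5 (CPM, x axes, one scale per gene) in 13 cell classes for the mutant, heterozygote and wild-type libraries, with 95% Poisson intervals that cover counting error only. The points part in otic epithelium-like cells for cdh11 (511, 427 and 234 CPM) and cdh6 (182, 176 and 424 CPM), and in pigment-like cells for cdh6 (388, 171 and 46.6 CPM).

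In most classes 1 cadherin made up most of the cadherin UMIs. Of the cadherin UMIs, pooled over the libraries, cdh5 made up 85.7% in endothelium-like, cdh6 85.1% in cranial sensory neuron-like, cdh1 83.3% in epidermis-like and cdh2 80.6% in neuron-like cells. The summed cadherin level ran from 326 CPM in pharyngeal arch mesenchyme-like to 2206 CPM in cranial sensory neuron-like cells. Otic epithelium-like cells were mixed, with 41.2% cdh11, 31.4% cdh6, 15.9% cdh2 and 10.4% cdh1. The otic sum was 936, 836 and 913 CPM in mutant, heterozygote and wild-type cells. Within it, cdh11 took 54.5%, 51.0% and 25.6% and cdh6 took 19.4%, 21.0% and 46.5% in mutant, heterozygote and wild-type cells. Pigment-like cells also held a mixture, with 47.8% cdh6 and 37.2% cdh1, and pharyngeal endoderm-like cells had 53.9% cdh1 and 27.5% cdh2.

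Cells with both the epithelial and the neural cadherin were sought in the epithelial classes. At 3000 UMIs per cell, a UMI of cdh1 and of cdh2 stood together in 9.04%, 6.04% and 11.7% of otic epithelium-like cells of the mutant, heterozygote and wild-type library. In placodal ectoderm-like cells it was 9.41%, 8.28% and 13.5%, in pharyngeal endoderm-like cells 9.25%, 10.8% and 10.8%, and in epidermis-like cells 6.20%, 10.98% and 15.6%, in the same order of libraries. Neural progenitor-like cells, which should lack cdh1, had 0.276% with the libraries pooled. A cdh1 UMI with or without cdh2 stood in 0.420% of that class. This is a background for cdh1 only, in which free RNA and doublets were not told apart. It gives none for cdh2, which was found in each of the 13 classes. A cdh2 UMI without cdh1 stood in 7.97% of endothelium-like and 9.09% of pharyngeal arch mesenchyme-like cells with the libraries pooled. The part of free cdh2 RNA in the cells with both genes was not tested.

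Detection of cdh2 in the same cells was set against detection of cdh1. Among otic epithelium-like cells cdh2 was found in 40.3% of the 139 cells with cdh1 and in 31.1% of the 450 cells without, libraries pooled. With and without cdh1 it was 35.7% and 28.2% in the mutant and 52.5% and 33.3% in the wild-type library. The heterozygote library went the other way, with 25.0% of 36 and 30.1% of 113 cells. In epidermis-like cells it was found in 15.8% of 405 cells with and 6.17% of 227 cells without cdh1. That class joins clusters that differ in both genes. Cluster 27 had 576 CPM of cdh1 and 73.7 of cdh2, cluster 32 had 284 and 6.05, and cluster 33 had 249 and 65.5. The part of this mixture in the 2 shares was not tested. Placodal ectoderm-like cells had 20.9% and 23.0%, and pharyngeal endoderm-like cells 24.0% and 23.1%, with and without cdh1. The share of cells with both genes depends on depth: without thinning it was 52.9% of otic epithelium-like and 49.4% of placodal ectoderm-like cells, and 0.170% and 1.18% held at least 2 UMIs of each gene at 3000 UMIs. Doublets, droplets with 2 cells, were not removed.

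**Figure D3:**
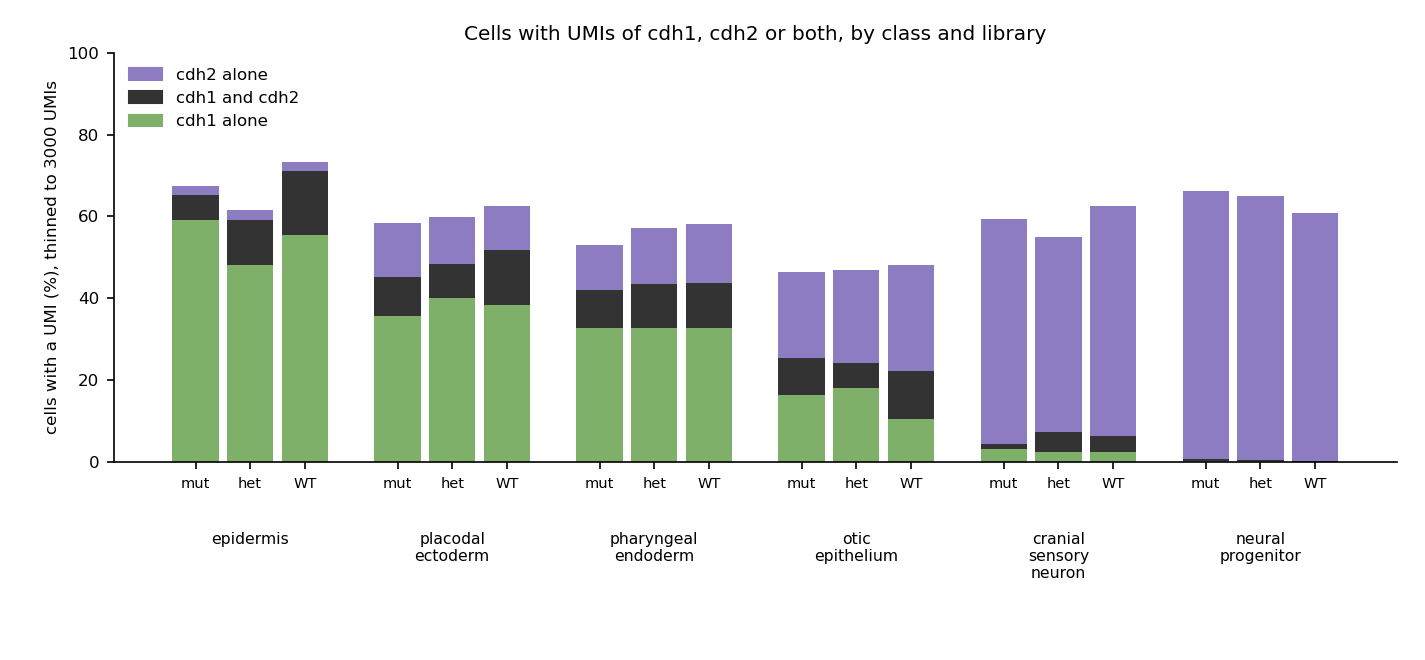
Share of cells (%, y axis, each cell thinned to 3000 UMIs) with a UMI of cdh1 alone, of cdh1 and cdh2, or of cdh2 alone in 6 classes, for the mutant, heterozygote and wild-type libraries. Epithelial classes hold the black band of cells with both, 9.51% of otic epithelium-like cells with the libraries pooled, and neural progenitor-like cells hold cdh2 with almost no cdh1.

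Libraries were then compared within a class. A gene and class pair was compared where both libraries together held at least 50 UMIs, and a fold of at least 1.5 was counted. Mutant over wild-type, 8 of 56 cadherin pairs were higher (14.3%) and 9 were lower (16.1%), and over all genes the shares were 14.8% higher and 9.98% lower. Heterozygote over wild-type, 13 of 60 were higher (21.7%) and 8 lower (13.3%), against 11.7% and 10.6% over all genes. Mutant over heterozygote, 7 of 63 were higher (11.1%) and 6 lower (9.52%), against 4.68% and 3.06% over all genes. Without the shallower shared barcodes 8 were higher and 11 lower of 55 for mutant over wild-type, against 14.9% and 10.1% over all genes. Heterozygote over wild-type then had 12 and 8 of 60 (11.8% and 10.6%), and mutant over heterozygote 7 and 6 of 63 (4.72% and 3.1%). With median-of-ratios scaling mutant over wild-type had 8 higher and 13 lower of 56, against 12.5% and 11.6% over all genes. Heterozygote over wild-type then had 13 and 9 of 60 (11.7% and 10.5%), and mutant over heterozygote 6 and 9 of 63 (3.41% and 3.96%). The share higher in the mutant than in the wild-type was near that of all genes. The comparisons with wild-type share that library. The plot of ratios over the wild-type library shows the 4 genes with several classes.

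**Figure D4:**
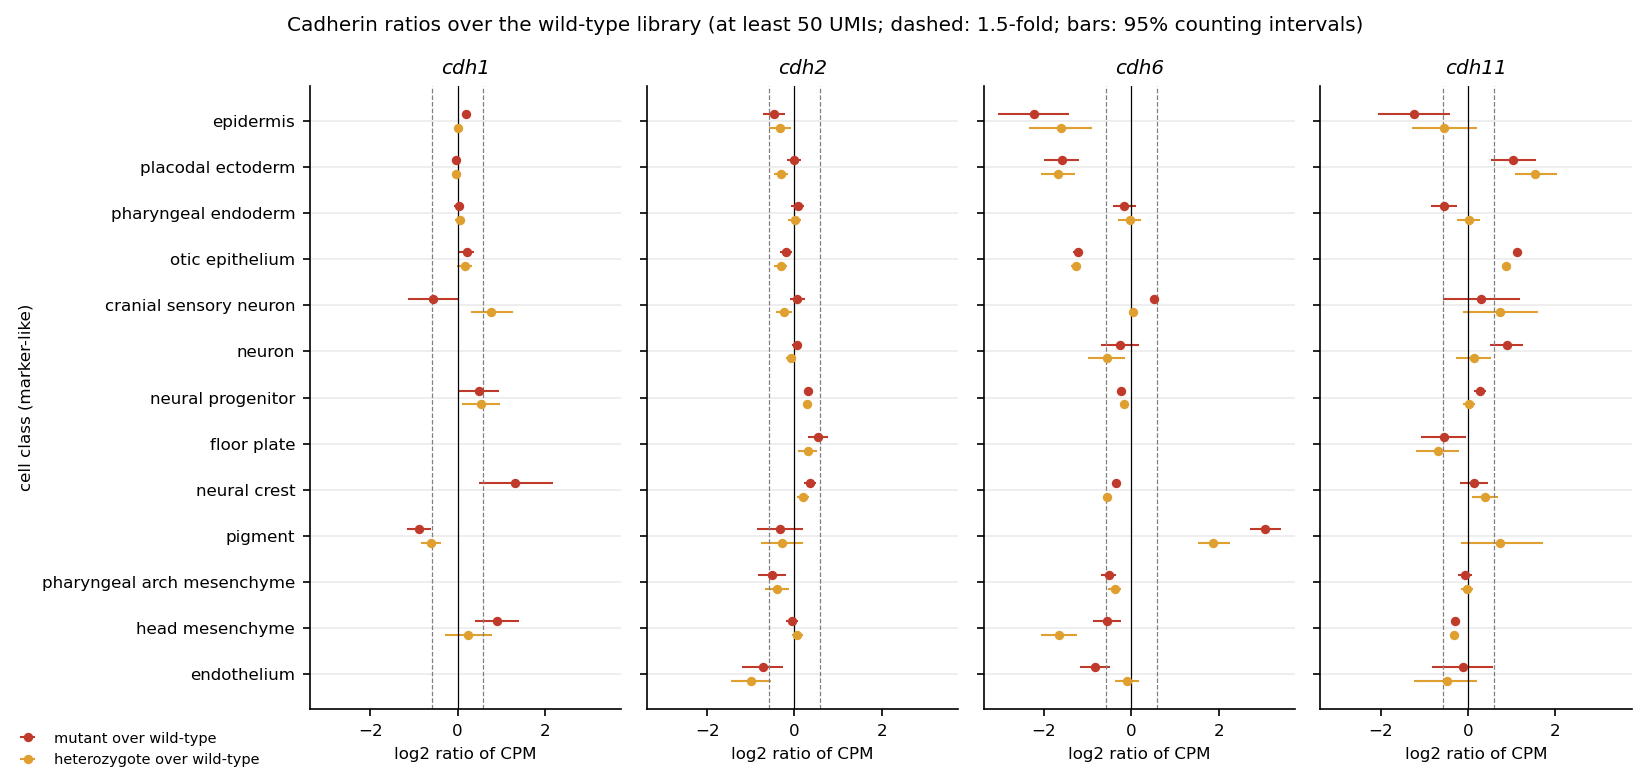
Log2 ratio of CPM over the wild-type library (x axes) for cdh1, cdh2, cdh6 and cdh11 by class, mutant above heterozygote, with 95% intervals for counting error and dashed lines at 1.5-fold, for pairs with at least 50 UMIs. Pairs far from 0 are cdh6 in pigment-like cells (3.06 for mutant over wild-type) and in epidermis-like cells (fell by 2.22, with 26 of 40 wild-type UMIs in 1 cell), and most cdh1 and cdh2 pairs lie inside the dashed lines.

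In otic epithelium-like cells cdh11 had 2595 UMIs in the mutant, 1981 in the heterozygote and 1658 in the wild-type library. The log2 ratio was 1.13 for mutant over wild-type (interval 1.04 to 1.22), 0.87 for heterozygote over wild-type (0.77 to 0.96) and 0.26 for mutant over heterozygote. No cell held more than 3.38% of these UMIs in any library. At 3000 UMIs per cell a cdh11 UMI was found in 63.9% of 166 mutant, 59.7% of 149 heterozygote and 38.0% of 274 wild-type cells, with 70 mutant, 68 heterozygote and 44 wild-type cells too shallow to enter. The mean over cells of each cell's own CPM, which gives shallow cells full weight, put the mutant over the wild-type by a log2 ratio of 0.54, under 1.5-fold. In this class 14.8% of genes were at least 1.5-fold higher and 10.4% lower in the mutant than in the wild-type, and 1 of the 4 cadherins compared fell on each side.

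For cdh6 the log2 ratio in otic epithelium-like cells was -1.22 for mutant over wild-type (interval -1.33 to -1.11) and -1.27 for heterozygote over wild-type (-1.39 to -1.16), with 925, 816 and 3012 UMIs in mutant, heterozygote and wild-type cells. In the mutant 1 cell held 23.4% of these UMIs. Mutant over heterozygote it was 0.05. The levels of cdh1 and cdh2 in the class lay within 1.5-fold in each comparison with wild-type, at log2 ratios of 0.21 and -0.20 for mutant over wild-type.

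The sum of the sensory neuron markers moved with these values, and neurod1 was the member that differed most in CPM. The 18 cranial sensory neuron markers summed to 977 CPM in mutant, 941 in heterozygote and 1797 CPM in wild-type otic epithelium-like cells, with 6 higher and 10 lower in the mutant than in the wild-type and 1 at 0. Of these, neurod1, a factor of neuroblasts that leave the otic epithelium, measured 224, 199 and 900 CPM, and six1b 526, 523 and 627 CPM. Among the 6 higher in the mutant were isl1 (15.0, 10.6 and 10.3 CPM) and cxcr4b (36.2, 30.2 and 32.7 CPM). The otic list of 18 markers summed to 9706, 9399 and 7336 CPM, with 12 higher and 5 lower in the mutant.

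The class was therefore divided by whether a cell held a neurod1 UMI, a division chosen after these values were seen. Cells with a neurod1 UMI were 45 of 236 mutant cells (19.1%), 41 of 217 heterozygote cells (18.9%) and 120 of 318 wild-type cells (37.7%). They held 97.3%, 96.3% and 97.1% of the otic cdh6 UMIs of mutant, heterozygote and wild-type libraries. Their cdh6 level was 1019, 749 and 1035 CPM, and the mutant over wild-type log2 ratio was -0.02 (interval -0.13 to 0.09). It was -0.47 for heterozygote over wild-type (-0.58 to -0.35) and 0.44 for mutant over heterozygote. In the mutant 1 of these cells held 216 of their 900 cdh6 UMIs. The intervals do not cover such spread between cells, and the ratios without that cell were not computed. Cells without a neurod1 UMI had 5.95, 8.35 and 20.6 CPM of cdh6, from 25, 30 and 88 UMIs. Their mutant over wild-type log2 ratio was -1.79 (-2.49 to -1.14).

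The level of cdh11 differed in both groups of otic cells. With a neurod1 UMI it was 266 CPM in mutant, 124 in heterozygote and 94.9 CPM in wild-type cells, at a log2 ratio of 1.49 for mutant over wild-type. Without a neurod1 UMI it was 562, 515 and 325 CPM in mutant, heterozygote and wild-type cells, at a log2 ratio of 0.79 (interval 0.69 to 0.89). Otic cells without neurod1 thus held more cdh11 and nearly no cdh6 in each library. A neurod1 UMI is also found more easily in deeper cells. Median depths with such a UMI were 20998, 20100 and 22202 UMIs in mutant, heterozygote and wild-type cells. Without one they were 19996, 19443 and 20666.5 UMIs in the same order. What depth adds to this division was not tested. According to the study's methods, wild-type embryos were kept only with both neurog1:dsRed and neurod1:EGFP signal. Genotype and this choice of embryos cannot be told apart in the shares of cells with neurod1.

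**Figure D5:**
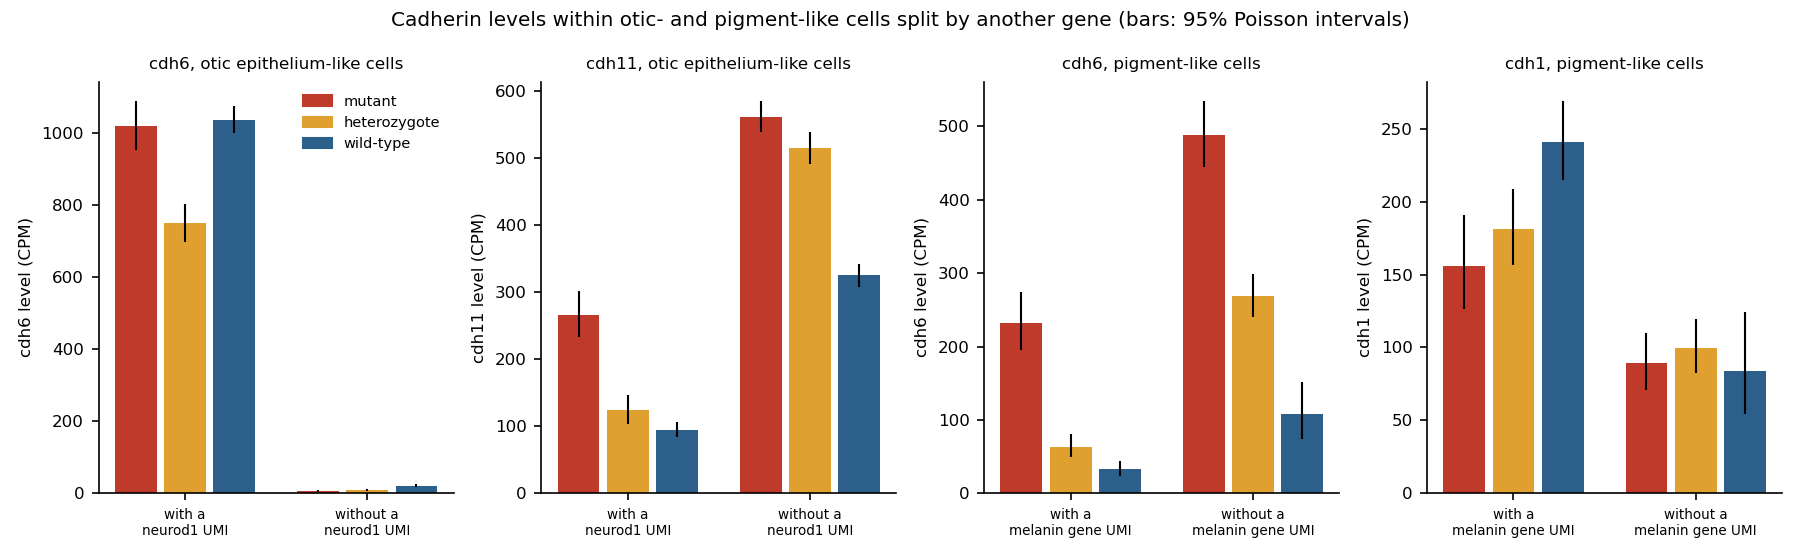
Levels (CPM, y axes from 0) of cdh6 and cdh11 in otic epithelium-like cells with and without a neurod1 UMI, and of cdh6 and cdh1 in pigment-like cells with and without a UMI of dct, tyr, tyrp1a or tyrp1b, for the mutant, heterozygote and wild-type libraries with 95% Poisson intervals. Otic cdh6 sits in the cells with neurod1 (1019, 749 and 1035 CPM), where 1 mutant cell held 216 of the 900 mutant UMIs. In pigment-like cells cdh6 is ordered mutant, heterozygote, wild-type in both groups.

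Pigment-like cells were few, with 76 mutant, 83 heterozygote and 62 wild-type cells. Their cdh6 had a log2 ratio of 3.06 for mutant over wild-type (interval 2.71 to 3.43), 1.88 for heterozygote over wild-type (1.52 to 2.26) and 1.18 for mutant over heterozygote, from 600, 392 and 74 UMIs in mutant, heterozygote and wild-type cells. A cdh6 UMI was found in 34 mutant, 39 heterozygote and 17 wild-type cells, and 1 wild-type cell held 23 of the 74 UMIs. In the same cells cdh1 had a log2 ratio of -0.88 for mutant over wild-type (-1.15 to -0.61) and -0.61 for heterozygote over wild-type, the second between -0.52 and -0.47 and so under 1.5-fold with thinned counts, without regression or at Leiden resolution 0.5. Over all genes of the class 18.3% were at least 1.5-fold higher and 15.3% lower in the mutant than in the wild-type.

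Pigment markers also differed between the libraries. The 13 pigment markers summed to 4732, 10679 and 14314 CPM in mutant, heterozygote and wild-type cells, with 2 higher and 11 lower in the mutant than in the wild-type. The largest part of each sum was gch2, at 3617, 9174 and 8521 CPM. Of the 11, dct, a melanin synthesis gene, measured 12.3, 112 and 987 CPM. The regulator of the melanocyte lineage, mitfa, is also counted among the 11 but was nearly level between mutant and wild-type, at 637, 382 and 648 CPM. The 2 higher in the mutant were tfec (80.2, 51.2 and 6.29 CPM), in the order of cdh6, and ltk (0.647, 1.75 and 0 CPM). The values of ltk are near 0 in each library and give no direction. The 11 neural crest markers summed to 2197, 1546 and 1960 CPM in mutant, heterozygote and wild-type cells, with 7 higher and 4 lower in the mutant than in the wild-type, so this sum did not follow cdh6. Single members went both ways. The order of cdh6, mutant over heterozygote over wild-type, was found in foxd3 (253, 221 and 81.2 CPM), pax3a (164, 52.9 and 37.7 CPM), erbb3b and snai1b. It was also found in mmp17b, but at levels near 0 (2.59, 2.19 and 1.26 CPM). Higher in the mutant alone was crestin, at 342, 134 and 143 CPM. Lower in the mutant than in the wild-type were sox10, tfap2a, sox9b and tfap2e. The last, a transcription factor of the crest lineage, measured 372, 351 and 576 CPM. The mutant cells were also shallower, with a median of 20586 UMIs against 29795 in heterozygote and 29554.5 in wild-type cells.

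Pigment-like cells were divided by whether they held a UMI of a melanin synthesis gene (dct, tyr, tyrp1a or tyrp1b), again after the values were seen. These were 24 mutant (31.6%), 34 heterozygote (41.0%) and 41 wild-type cells (66.1%), with median depths of 29295, 33409.5 and 31422 UMIs. The cells without such a UMI were shallower, with medians of 13168.5, 27543 and 5128 UMIs in mutant, heterozygote and wild-type cells. A melanin gene is more easily missed in a shallow cell, and what depth adds to this division was not tested. With such a UMI cdh6 measured 232, 63.8 and 32.5 CPM, and without one 488, 268 and 108 CPM, in mutant, heterozygote and wild-type cells. The mutant over wild-type log2 ratio was 2.84 with and 2.18 without. For cdh1 the levels were 156, 181 and 241 CPM with such a UMI and 89.0, 99.7 and 84.1 CPM without, at log2 ratios of -0.63 and 0.08. The lower cdh1 of the mutant was thus seen in cells with a melanin gene UMI, and the group without one had 25 cdh1 UMIs in 21 wild-type cells. The part of the differing makeup in the pooled ratios of both genes was not tested beyond these values.

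Placodal ectoderm-like cells had cdh11 at 15.1, 21.6 and 7.46 CPM and cdh6 at 9.18, 8.68 and 27.7 CPM in mutant, heterozygote and wild-type libraries. The mutant over wild-type log2 ratios were 1.02 (interval 0.52 to 1.54) for cdh11 and -1.59 (-2.003 to -1.19) for cdh6. Clustering at Leiden resolution 2 gave -0.52 for cdh6, under 1.5-fold. The directions were those of the otic class at far lower levels, and cdh1, the main cadherin of placodal ectoderm-like cells, had a log2 ratio of -0.05.

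In the classes with cdh2 or cdh5 as the main cadherin the ratios of these genes were under 1.5-fold for mutant over wild-type at the main settings. For cdh2 in neural progenitor-like cells the value was 0.31 for mutant over wild-type (interval 0.28 to 0.34) and 0.30 for heterozygote over wild-type, with the clusters named above filled unequally by the libraries. In floor plate-like cells cdh2 had 0.54 for mutant over wild-type (0.31 to 0.76), -0.29 with the mean of each cell's CPM, and 0.61, past 1.5-fold, without the 8% of cells with the highest doublet scores. In neuron-like cells it had 0.06. In endothelium-like cells cdh5 had -0.35 for mutant over wild-type, and alternative settings ran from -0.61, past 1.5-fold, to -0.34. The low cdh2 of the same cells, 35.0, 29.0 and 57.5 CPM in mutant, heterozygote and wild-type libraries, had a log2 ratio of -0.72 for mutant over wild-type, and of -0.08 with the mean of each cell's CPM. Their cdh6, at 60.3, 99.3 and 107 CPM, had -0.82. In cranial sensory neuron-like cells cdh6 had 0.52 for mutant over wild-type (0.46 to 0.59), under 1.5-fold, and 0.04 for heterozygote over wild-type. Alternative settings put the mutant over wild-type value between 0.34 and 0.63, the upper end past 1.5-fold.

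Further pairs past 1.5-fold were found at low levels. In neuron-like cells cdh11 measured 43.0, 25.5 and 23.3 CPM in mutant, heterozygote and wild-type libraries, from 125 mutant and 124 wild-type UMIs, with a log2 ratio of 0.88 for mutant over wild-type that was 0.21 at Leiden resolution 0.5. In neural crest-like cells cdh1 had 31 mutant and 22 wild-type UMIs and a log2 ratio of 1.32 (interval 0.49 to 2.18). In head mesenchyme-like cells cdh1 had 0.90 for mutant over wild-type, and 0.30 with the mean of each cell's CPM.

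The 22 other rows stayed under 20 CPM in each of the 13 compared classes, and 8 of them reached at least 5 CPM in one. The members named here were chosen after their values were seen. The type II cadherin cdh7a measured 18.5, 18.5 and 16.3 CPM in floor plate-like cells and 15.2, 14.2 and 14.8 CPM in neural progenitor-like cells of mutant, heterozygote and wild-type libraries. Its levels were alike over the libraries in both classes, with a log2 ratio of 0.05 for mutant over wild-type in the progenitor-like class (interval -0.09 to 0.18). Neuron-like cells held cdh4 (R-cadherin), at 5.50, 10.2 and 6.21 CPM, and cdh7b, at 10.3, 13.7 and 1.69 CPM. For cdh7b this came from 30, 51 and 9 UMIs, with a log2 ratio of 3.02 for heterozygote over wild-type.

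In epidermis-like cells 3 low members stood out. Of these cdh26.1 measured 11.8, 12.98 and 8.64 CPM, cdh27 measured 7.88, 11.3 and 5.34 CPM and cdh18a measured 5.28, 1.61 and 0.763 CPM in mutant, heterozygote and wild-type libraries. The log2 ratio of cdh18a was 2.79 for mutant over wild-type (interval 1.16 to 5.12), from 51 and 3 UMIs. Head mesenchyme-like cells had more cdh18a, at 9.72, 8.36 and 7.68 CPM. In cranial sensory neuron-like cells cdh10a, a type II cadherin, measured 8.51, 5.31 and 15.6 CPM from 60 UMIs in all. An apparent 48.8 CPM of cdh17 in wild-type floor plate-like cells came from 45 UMIs in 1 of 62 cells, and the mutant and heterozygote floor plate-like cells had no UMI.

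The low members also held genes known for work in the ear and kidney. The rows of cdh23, which encodes a part of the tip links of hair cells, reached at most 0.245 CPM in a compared class. The kidney cadherin cdh16 reached 0.264 CPM, and 14 of the 22 rows stayed under 5 CPM in each compared class. Of these 14, cdh15 (46.5 CPM in muscle-like cells), cdh13 (7.70 CPM in lateral plate and heart mesoderm-like cells) and cdh26.2 (6.48 CPM in an unnamed cluster) passed 5 CPM outside them. In a RefSeq annotation of another zebrafish build (GRCz12tu) several members are neighbours: cdh11 with cdh5, cdh28 with cdh30, cdh26.1 with cdh26.2, and cdh6, cdh10a, cdh12a and cdh18a in a row. The neighbours cdh5 and cdh11 had different top classes, endothelium-like and otic epithelium-like cells, and reads that overlapping or near-identical genes could share were not told apart here.

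Cytoplasmic partners of the cadherins were described from a list of 11 catenins, of which 10 were in the files and 7 reached 20 CPM in a class. The beta-catenin genes were broad: ctnnb1 ran from 253 CPM in epidermis-like to 566 CPM in otic epithelium-like cells, and ctnnb2 reached 291 CPM in floor plate-like cells. Alpha-catenins parted by class. The epithelial ctnna1 reached 134 CPM in epidermis-like cells and 16.1 CPM in neuron-like cells, whereas the neural ctnna2 had 159 CPM in neuron-like cells and 0.594 CPM in arch mesenchyme-like cells. Among p120-type catenins ctnnd1 reached 234 CPM in epidermis-like and ctnnd2b 84.6 CPM in neuron-like cells. Plakoglobin (jupa), which works in adherens junctions and desmosomes, reached 471 CPM in epidermis-like cells. Of 83 catenin and class pairs 7 were higher and 4 lower in the mutant than in the wild-type.

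Among 12 transcription factors known as repressors of cdh1 or as mesenchyme factors, 10 reached 20 CPM, and the highest were twist1a with 988 CPM in arch mesenchyme-like cells, zeb2a with 752 CPM in pigment-like cells and zeb1b with 139 CPM in cranial sensory neuron-like cells. In pigment-like cells zeb2a measured 1060, 636 and 618 CPM in mutant, heterozygote and wild-type libraries. Of 85 factor and class pairs 14 were higher and 14 lower in the mutant than in the wild-type. The other lists, in the same comparison, had 7 higher and 7 lower of 81 pairs for adherens junction partners, 16 and 9 of 79 for desmosome genes and 36 and 32 of 201 for the further cadherin superfamily. The share of all pairs over all genes was given above, and nothing particular to a list is drawn from these counts.

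Genes whose level over the 13 classes was most like that of a cadherin were ranked by Pearson's r of log2(CPM + 1) among the 8443 genes that reached 20 CPM in a class, with the classes sharing libraries. For cdh5 they were clec14a, rasip1, lrrc15, myct1a and si:ch211-14k19.8, with r of 0.998 to 0.997. For cdh1 they were hsd17b14, elf1, epcam, tmem54a and oclna (0.933 to 0.891), and for cdh2 fzd3a, tox, ogt.1, plch1 and si:ch211-214c7.4 (0.960 to 0.927). For cdh11 they were col9a1a, bmpr1ba, emilin1a, sox5 and rgmd (0.817 to 0.733), and for cdh6 hddc3, cox7b, idi1, cox20 and cct5 (0.821 to 0.785). These are the highest of 8443 genes over only 13 classes, and how high r would reach by this choice alone was not tested. Between cdh1 and cdh2 r was -0.40 over the 13 classes.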

How the data were processed

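The deposited files held UMI counts per gene and cell, which the authors made with Cell Ranger 4.0.0 against GRCz11 with the reporter sequences added. These counts were not normalized. Depth was 131099920 UMIs in mutant, 157573577 in heterozygote and 176280326 in wild-type cells kept. Cells were clustered with scanpy 1.11.5 (python 3.11.15, leidenalg 0.10.2): scaling to 10000, 2521 variable genes, regression of total counts and mitochondrial percent, 40 principal components, 10 neighbors, Leiden resolution 1. A cluster was named after the list with the most markers raised (at least 3, at least 2-fold), unless another list led its 10 leading genes. This rule was settled after clusters had been seen, and members and lists were chosen with earlier results of these data known. 7 clusters with 4678 cells stayed unnamed and 6 classes were too small. The doublet caller marked 0 cells in each library and so did not work, and no doublet was removed.

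UMIs were summed per class and library, and CPM were given exact Poisson intervals, ratios exact conditional binomial intervals and shares Clopper-Pearson intervals (scipy 1.17.1). A count of 0 was set to 3 UMIs in ratios. The ratio and its interval were tested on counts simulated from the summed UMIs of otic epithelium-like cells, without spread between cells. Clustering, naming, thinning and the divisions of classes had no such test. Named cadherins reached 20 CPM in a compared class, and with 1 library per genotype no p-value was computed. Of 27 rows, 26 IDs matched the gene name table and 25 symbols RefSeq. Alternatives covered clustering, depth, doublet scores, scaling, thresholds and shared barcodes.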

Additional observations from a re-analysis of the deposited data

Results flagged for a closer look

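For 3 cadherins the mutant library lay at least 1.5-fold above the wild-type in at least 1 class and at least 1.5-fold below it in at least 1 other. The differences between classes were not tested, and the share of all genes with such a pattern was not computed. For each of the 3, only the class with the largest ratio on either side is given, among pairs with at least 50 UMIs. For cdh11 the mutant over wild-type log2 ratio was 1.13 in otic epithelium-like cells and -1.24 in epidermis-like cells, the second from 27 mutant and 26 wild-type UMIs. For cdh1 it was 1.32 in neural crest-like cells, from 31 mutant and 22 wild-type UMIs, and -0.88 in pigment-like cells. For cdh6 it was 3.06 in pigment-like cells and -2.22 in epidermis-like cells. The second came from 21 mutant and 40 wild-type UMIs, with 26 of the 40 in 1 cell.

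Cadherins were also found above their level in any compared class in clusters that the comparisons left out. The gene cdh2 measured 504 CPM in cluster 10, an unnamed cluster led by nkx2.9 and nkx2.2a (493, 543 and 483 CPM in mutant, heterozygote and wild-type cells). Cluster 35, unnamed and led by genes such as grhl3 and icn, had 656 CPM of cdh1 (640, 722 and 623 CPM in mutant, heterozygote and wild-type cells) and 6.48 CPM of cdh26.2. In cluster 34, led by neuronal genes such as phox2a, cdh4 measured 11.2 CPM. Lateral plate and heart mesoderm-like cells (152 cells) had 372 CPM of cdh2, at 293, 318 and 527 CPM in mutant, heterozygote and wild-type cells, and 7.70 CPM of cdh13. Muscle-like cells (53 cells) had 46.5 CPM of cdh15, the cadherin of myoblasts, from 54 UMIs, and notochord-like cells (41 cells) had 371 CPM of cdh2.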

How the results depend on the processing

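No paired analysis was possible because each genotype had 1 library, and no library could be left out. Of 36 named ratios of at least 1.5-fold, 310 of 334 alternative values stayed past 1.5-fold in the same direction and 4 reversed. Those were cdh11 mutant over wild-type in epidermis-like cells (0.24) and cdh6 mutant over heterozygote in head mesenchyme-like cells (-0.33), both at Leiden resolution 0.5, and cdh1 in pigment-like cells without a melanin gene UMI (0.082 for mutant, 0.25 for heterozygote over wild-type). The cause was not tested.

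Counts of cadherin pairs moved as follows, each with the number compared and the share of all gene pairs at that setting. Leiden resolution 0.5 gave 12 of 51 lower for mutant over wild-type (10.1%) and 3 of 53 higher for mutant over heterozygote (4.81%). A minimum of 1000 genes per cell gave 9 higher and 12 lower of 56 for mutant over wild-type (15% and 10.1%). No regression gave 6 of 49 lower for mutant over wild-type (10.2%) and 8 of 55 higher for heterozygote over wild-type (11.8%). The mean of per-cell CPM gave 12 of 63 higher for mutant over heterozygote (8.86%). Thinning to 3000 UMIs gave 2 higher and 7 lower of 29 for mutant over wild-type (13.7% and 9.04%). Heterozygote over wild-type then had 1 and 3 of 30 (11.1% and 9.04%), and mutant over heterozygote 1 and 1 of 28 (4.84% and 3.19%). A minimum of 20 UMIs gave 13 higher and 18 lower of 81 for mutant over wild-type (17.5% and 13%), 16 lower of 87 for heterozygote over wild-type (13.8%) and 13 lower of 84 for mutant over heterozygote (5.78%). A minimum of 200 UMIs gave 3 and 5 of 37 for mutant over wild-type (11.4% and 6.44%), 3 and 5 of 38 for heterozygote over wild-type (8.39% and 6.65%) and 2 and 1 of 35 for mutant over heterozygote (1.75% and 1.09%). A fold of 2 gave 4 lower of 56 for mutant over wild-type (4.04%), 6 and 4 of 60 for heterozygote over wild-type (4.77% and 3.83%) and 4 and 2 of 63 for mutant over heterozygote (0.791% and 0.799%).

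Without regression 3 of 5 cadherins kept their top class: cdh6 was then highest in neural crest-like (589 CPM) and cdh2 in neuron-like cells (368 CPM). The top class of cdh6 was also another one at Leiden resolution 0.5 (pharyngeal arch mesenchyme-like, 368 CPM) and 2 (neural crest-like, 549 CPM). No cranial sensory neuron-like class came out without regression or at Leiden resolution 0.5 or 2, and at 0.5 neither did neural crest- and placodal ectoderm-like classes, so these gave no value. The share of placodal ectoderm-like and otic epithelium-like cells with cdh1 and cdh2 was 49.4% and 52.9% without thinning, 20.6% and 22.5% at 6000 UMIs and 1.18% and 0.170% with at least 2 UMIs of each. Depth limits the ratios of members under 50 UMIs in a class. Median-of-ratios scaling moved a class by -0.10 to 0.14 on the log2 scale.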
